A study of Mus musculus with 36 samples.

Results

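Of 36 RNA-seq libraries of the ligated left carotid artery, 17 held less than 10 CPM of Rag1 and less than 100 CPM of Tg, and the difference between 129X1/SvJ (129X1) and C57BL/6J (B6) mice was measured among these 17. CPM is a gene's count per 1e6 counts of its library. Rag1 encodes the recombinase of developing lymphocytes and marks thymus, and Tg encodes thyroglobulin and marks thyroid. Both organs lie close to the carotid artery, and the labelled tissue is the artery alone. The 17 retained libraries were 4 from 129X1 and 13 from B6. The libraries were thus selected on the measured levels of Rag1 and Tg, which are therefore given as a description, and markers of thymus and thyroid support nothing below.

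The study ligated the left carotid artery, which stops flow and makes the wall remodel, and took the vessel 14 days later. Mice received the vehicle (Veh, 2 mL/kg/day), the angiotensin receptor blocker valsartan (Val, 27 mg/kg/day) or, at 60 mg/kg/day, its combination with sacubitril (Sac/val), which also inhibits neprilysin. Dosing was prophylactic (16 days, begun ahead of ligation) or therapeutic (7 days, begun a week after it), and each of the 12 combinations of strain, treatment and regimen had 3 libraries of 1 mouse each. The retained 129X1 libraries were all prophylactic: Veh 1, Val 1, Val 2 and Sac/val 3, with numbers that only name the mice within a group. The retained B6 libraries were 7 prophylactic (3 Veh, 1 Val, 3 Sac/val) and 6 therapeutic (1 Veh, 2 Val, 3 Sac/val). Both strains are inbred and the labels name no engineered allele, every artery was ligated, and age and sex are not given in the sources used here. Values of the 129X1 libraries follow in the order Veh 1, Val 1, Val 2, Sac/val 3 throughout, and those of the 13 B6 libraries are given as lowest, median and highest.

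129X1 and B6 are substrains of separate inbred lineages that differ at many loci, among them clusters of immune genes. In a ligated artery, leukocytes enter the wall, smooth muscle cells divide and change from a contractile to a matrix-producing state, and collagen and elastin are laid down and crosslinked. Perivascular fat surrounds the vessel. In mice it holds brown adipocytes, which are rich in mitochondria and burn fat through the uncoupling protein Ucp1.

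Rag1 reached 0.0939, 0.368, 0.180 and 2.77 CPM in the 129X1 libraries, against 0.0451, 0.984 and 7.70 CPM in B6. Tg was at 0.141, 0.184, 46.3 and 0.330 CPM in 129X1, against 0.739, 4.31 and 47.1 CPM in B6. Just inside the limits stood a B6 Sac/val prophylactic library with 7.70 CPM of Rag1 and a B6 vehicle prophylactic library with 47.1 CPM of Tg. Just outside stood a 129X1 Val therapeutic library with 14.9 CPM of Rag1, and the lowest Tg value at or above the limit was 525 CPM in another 129X1 Val therapeutic library. Of the 19 libraries left out (14 from 129X1 and 5 from B6), 12 exceeded the Rag1 limit alone, 3 the Tg limit alone and 4 both.

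**Figure D1:**
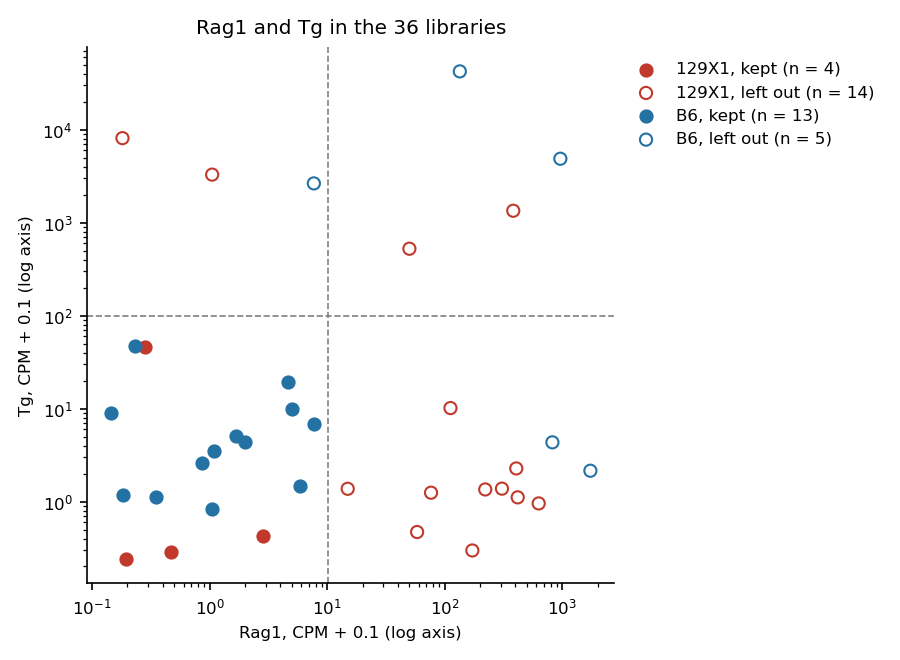
Rag1 (horizontal) and Tg (vertical) in CPM + 0.1 on log axes for the 36 libraries; filled points are the retained libraries (4 of 129X1 in red, 13 of B6 in blue), open points those left out (14 and 5), and dashed lines the limits of 10 and 100 CPM. All 4 retained 129X1 libraries lie at or below 2.77 CPM of Rag1.

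Low Rag1 and Tg did not mean the absence of neighbouring tissue. Prss16, a protease of the thymic epithelium, was at 1.6, 0.184, 0.0450 and 9.04 CPM in 129X1, against 0.0821 to 1.15 CPM in B6, so the 129X1 Sac/val library still held some thymic transcript. Parathyroid hormone (Pth) was at 6267, 6.44, 4080 and 4293 CPM in 129X1. In B6 it was at 6573 and 7468 CPM in Sac/val prophylactic library 2 and Sac/val therapeutic library 1, and at or below 420 CPM in the other 11. The skeletal muscle actin Acta1 was at 3044, 9114, 613 and 86.0 CPM in 129X1, against 22.4 to 5363 CPM in B6. Ucp1 was at 3213, 899, 3078 and 2310 CPM in 129X1, against 76.1, 925 and 1751 CPM in B6. The smooth muscle myosin Myh11, a defining marker of the labelled tissue, was present in all 17 libraries, at 387, 529, 190.02 and 319.8 CPM in 129X1 and 181.6, 315 and 585 CPM in B6. The first of the principal components of the 17 libraries (43.7% of the variance, led by Pth) and the second (25.8%, led by the muscle myosin Myh4) each had a gene of neighbouring tissue at its head. Genes with large strain differences were also among the leading genes, Eno1b, Rps13-ps1 and Trim12a in the first and Eno1b, Rps3a3 and Rps13-ps1 in the second. On the first component 129X1 lay at 18.7 to 59.5 and B6 at -46.7 to 26.2. Fewer cells of a type and less RNA per cell cannot be told apart in these bulk libraries.

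**Figure D2:**
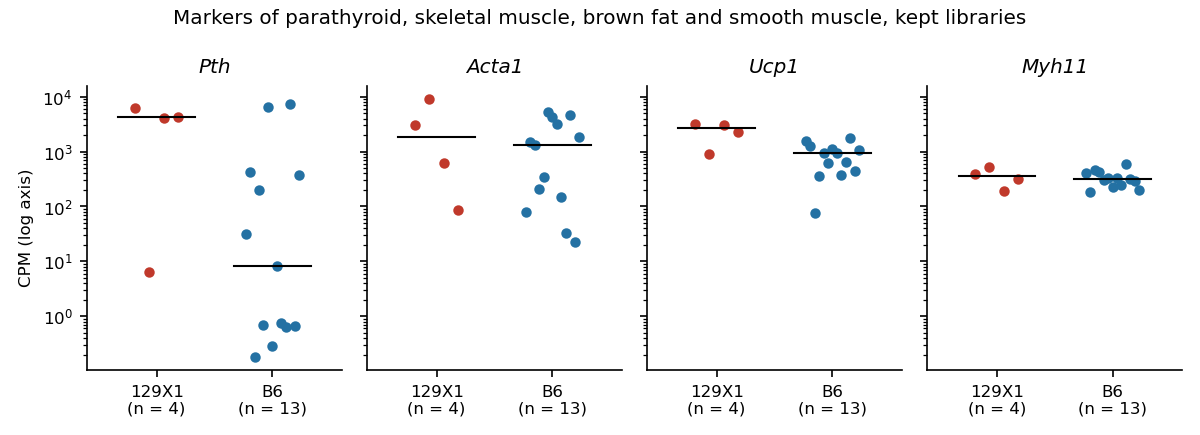
CPM (shared log axis) of Pth (parathyroid), Acta1 (skeletal muscle), Ucp1 (brown fat) and Myh11 (smooth muscle) in the 4 retained 129X1 and the 13 retained B6 libraries; points are libraries and lines medians. Pth is at 4080 CPM or more in 3 of 4 libraries of 129X1 and in 2 of 13 of B6.

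Total counts of the retained libraries ran from 21.3 M to 24.2 M in 129X1 and from 20.9 M to 29 M in B6. A model with strain, treatment and regimen was fitted to the 17 libraries. Because no therapeutic 129X1 library was retained, the regimen term rests on B6 alone. Of 17096 genes tested, 4236 passed at an adjusted p below 0.05 (24.8 percent), 2197 higher (12.9 percent) and 2039 lower (11.9 percent) in 129X1, and 6721 had an unadjusted p below 0.05. The shares of 12.9 percent higher and 11.9 percent lower stand beside every list count of these 17 libraries below. In 1192 genes (6.97 percent) every library of 1 strain lay above every library of the other, 403 with 129X1 above (2.36 percent) and 789 with 129X1 below (4.62 percent), and 1028 of the 1192 passed. The median log2 difference over all genes tested was -0.016. The number of calls rests on single libraries: it was 1159 without the 129X1 Veh library, 2106 without 129X1 Val 2, 2472 without B6 Val prophylactic 3 and 5962 without the 129X1 Sac/val library. With the 7 prophylactic B6 libraries as the only B6 libraries, 2316 genes passed. Of the calls among the genes named by rule, 61 ended and 48 held without the 129X1 Veh library, and 47 ended without 129X1 Val 2, 33 without B6 Val prophylactic 3 and 4 without the 129X1 Sac/val library.

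Genes of the interferon response were lower in 129X1. Interferons induce these genes through a complex that includes STAT2 and IRF9, and their products restrict viruses. Of 31 members tested, 22 passed as lower and 1, Xaf1, as higher, with a median log2 difference of -1.40, and in 13 members every 129X1 library lay below every B6 library (4.62 percent of all genes tested did so). Oas3, which makes the second messenger that activates RNase L, was at 0.282, 0.598, 1.48 and 2.15 CPM in 129X1, against 3.43, 7.81 and 23.9 CPM in B6. All 4 values of 129X1 lay below the lowest of B6, and the log2 difference was -3.07 (SE 0.62, adjusted p = 0.00487). Zbp1, a sensor of Z-form nucleic acid, was at 1.88, 3.87, 1.98 and 5.32 CPM in 129X1, against 8.48, 17.2 and 37.1 CPM in B6 (log2 -2.50, SE 0.53, adjusted p = 0.00652). The immunity-related GTPase Ifi47 was at 4.46, 8.19, 4.23 and 6.93 CPM in 129X1, against 9.62, 23.1 and 33.3 CPM in B6 (log2 -1.76, SE 0.35, adjusted p = 0.00445). Bst2, the tetherin that holds budding virus at the cell surface, was at 18.6, 28.2, 18.9 and 33.3 CPM in 129X1, against 39.3, 73.6 and 139 CPM in B6 (log2 -1.62, SE 0.34, adjusted p = 0.00615). The strains did not overlap in any of these 4 genes, and each call held whichever single library was left out. All 4 calls ended with sympathetic neuron and B cell scores as covariates and in the drug-treated or the vehicle libraries alone, and that of Bst2 also ended with the brown fat score.

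Xaf1, an interferon-induced protein that promotes apoptosis, went the other way. It was at 34, 80.4, 61.1 and 57.6 CPM in 129X1, against 16.5, 28.3 and 41.0 CPM in B6 (log2 1.08, SE 0.26, adjusted p = 0.0122), and only the 129X1 Veh library lay within the B6 range. The call of Xaf1 held whichever single library was left out. It ended with the brown fat, adipocyte or Schwann cell score and in the drug-treated libraries alone. With sympathetic neuron and B cell scores, or with skeletal muscle, adipocyte and Schwann cell scores together, it ended too. Of the transcription factors of the pathway, Irf7 differed by -1.75, Stat2 by -0.79 and Irf9 by -0.66, and these 3 passed. The count of lower members in the interferon response list was 4 without the 129X1 Veh library, 5 without B6 Val prophylactic 3 or without 129X1 Val 2, 14 without B6 Veh prophylactic 1 or without 129X1 Val 1, and 12 in the prophylactic libraries alone, where the median was -1.46.

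The DNA just upstream of these genes is shown for what they share in sequence. Interferon-activated factors bind an element with a paired GAAA core, and the letters GAAANNGAAA were searched on both strands in the 250 bases before each gene's start in RefSeq promoters (GRCm38.p6). They were present in 978 of 32851 promoter windows (2.98 percent) and in at least 1 window of 936 of 27025 genes (3.46 percent). Of 24 interferon response genes with a promoter sequence, 12 held them, 11 of the 18 that were lower in 129X1 and 1 of the other 6. Xaf1 was among those with no match in the window. The match nearest the start of each gene is shown with up to 10 bases on either side, 5′ to 3′ on the strand of the gene, with the matching letters in capitals (TTTCNNTTTC where the match is on the other strand).
Oas3: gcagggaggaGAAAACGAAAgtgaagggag, chr5:120777715-120777744, minus strand.
Isg15: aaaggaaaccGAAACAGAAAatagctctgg, chr4:156200865-156200894, minus strand.
Ifit1: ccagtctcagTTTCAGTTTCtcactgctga, chr19:34640794-34640823, plus strand.
Oas1a: tcgggaaatgGAAACTGAAAatct, chr5:120907526-120907549, minus strand.
Bst2: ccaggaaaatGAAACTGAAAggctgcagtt, chr8:71537577-71537606, minus strand.
Ifit3: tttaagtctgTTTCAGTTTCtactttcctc, chr19:34583397-34583426, plus strand.
Rsad2: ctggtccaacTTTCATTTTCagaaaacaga, chr12:26456553-26456582, minus strand.
Gbp3: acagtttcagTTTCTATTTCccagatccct, chr3:142559995-142560024, plus strand.
Igtp: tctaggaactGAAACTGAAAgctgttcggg, chr11:58199512-58199541, plus strand.
Irgm1: tcaagaaataGAAACCGAAActgattctca, chr11:48871425-48871454, minus strand.
Stat2: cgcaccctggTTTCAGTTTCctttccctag, chr10:128270266-128270295, plus strand.
Gbp7: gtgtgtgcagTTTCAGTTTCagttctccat, chr3:142530273-142530302, plus strand.
The genes stand in the order of their log2 difference, from -3.07 for Oas3 to -0.67 for Gbp7, and all but Ifit3 (-1.59, adjusted p = 0.0568) passed as lower in 129X1. A match of letters is a description and not a binding site. By comparison, the letters were found for 2 of 17 mitochondrial respiration genes, 2 of 18 macrophage genes, 1 of 21 cell cycle genes and 0 of 16 genes for fibrillar collagens and their crosslinking.

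Genes of antigen presentation followed, with 10 of 21 tested members of the MHC list lower in 129X1 (11.9 percent of all genes tested were lower), 0 higher and a median of -0.62. The count was 4 without B6 Val prophylactic 3 or 129X1 Val 2, 5 without 129X1 Veh, 6 without 129X1 Val 1 and 14 without the 129X1 Sac/val library. Nlrc5, the transactivator of MHC class I genes, was at 8.78, 9.76, 8.68 and 8.87 CPM in 129X1, against 14.0, 22.5 and 32.4 CPM in B6 (log2 -1.22, SE 0.22, adjusted p = 0.00224), with no overlap. The non-classical class I gene H2-M3, which presents formylated peptides, was at 5.77, 7.59, 5.71 and 8.34 CPM in 129X1, against 11.7, 19.6 and 23.7 CPM in B6 (log2 -1.34, SE 0.17, adjusted p = 0.000115). The peptide transporter Tap1 (-0.65) and the light chain B2m (-0.55) also passed, whereas the class II genes H2-Aa (-0.67) and H2-Ab1 (-0.62) did not. The class I genes of the list resemble each other and may differ in sequence between strains, so their individual values are uncertain.

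Macrophage genes were lower in 129X1: 16 of 24 tested members passed as lower and 0 as higher, with a median of -1.37. Over all genes tested, 11.9 percent were lower. Their summed level was 812, 1450, 1516 and 3923 CPM in 129X1, against 1958, 5394 and 8817 CPM in B6, so the 129X1 Sac/val library alone lay within the B6 range. Fcgr1, the high-affinity Fc receptor, was at 2.21, 5.66, 2.11 and 5.98 CPM in 129X1, against 6.74, 24.3 and 47.2 CPM in B6 (log2 -2.18, SE 0.45, adjusted p = 0.00528). Mertk, the receptor by which macrophages take up apoptotic cells, was at 16.4, 19.1, 18.2 and 21.6 CPM in 129X1, against 25.3, 41.8 and 69.6 CPM in B6 (log2 -1.15, SE 0.22, adjusted p = 0.00366). Neither gene overlapped between strains. Fcgr4 (-2.71, SE 0.53) and Aif1, the actin-binding marker of activated macrophages (-2.01, SE 0.41), passed with overlap. Arg1, the arginase of repair macrophages, was at 0.141, 2.44, 1.62 and 3.34 CPM in 129X1, against 2.16, 22.1 and 46.0 CPM in B6 (log2 -3.66, SE 0.90, adjusted p = 0.0132). The count of lower members in the macrophage list was 4 without the 129X1 Veh library, 6 without B6 Val prophylactic 3, 8 without 129X1 Val 2 and 10 without B6 Sac/val prophylactic 3.

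Attractants of leukocytes and neutrophil genes had the largest list medians among the immune lists. Of 29 tested members of the list of cytokines, chemokines and adhesion, 11 were lower, 0 were higher and the median was -1.55. The share of all genes tested that were lower was 11.9 percent. Passing members were led by the neutrophil attractants Cxcl2 (-3.91) and Cxcl5 (-3.66) and the macrophage proteins Ccl4 (-3.43) and Ccl3 (-3.42). Ccl5, an attractant of T cells, was at 0.469, 0.920, 0.630 and 1.03 CPM in 129X1, against 1.31, 2.78 and 6.75 CPM in B6 (log2 -1.78, SE 0.40, adjusted p = 0.00888). Ccl7, which recruits monocytes, was at 3.57, 5.75, 3.01 and 21.3 CPM in 129X1, against 6.61, 29.4 and 71.7 CPM in B6 (log2 -1.38, SE 0.60, adjusted p = 0.107), and the Sac/val value stands well above the other 129X1 values. Of 12 neutrophil genes tested, 6 were lower and 1 higher, beside 11.9 and 12.9 percent of all genes tested. The alarmin subunit S100a8 was at 0.0939, 0.276, 3.73 and 9.20 CPM in 129X1, against 3.80, 66.4 and 132 CPM in B6 (log2 -4.26, SE 1.26, adjusted p = 0.0281). Of the cytokines, chemokines and adhesion list, 0 members passed without the 129X1 Veh library, 3 without 129X1 Val 2, 5 without 129X1 Val 1 or B6 Val prophylactic 3, and 22 without the 129X1 Sac/val library. Leaving out each of the 17 libraries in turn, 0 to 9 members of the neutrophil list were lower, with 0 without the 129X1 Veh library and 9 without the 129X1 Sac/val library.

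Of 21 complement genes, 9 were lower, beside 11.9 percent of all genes tested, and 1 was higher. The lower count was 2 without the 129X1 Veh library, 3 without B6 Val prophylactic 3, 4 without 129X1 Val 2 and 13 without the 129X1 Sac/val library. C5ar1, the receptor for the anaphylatoxin C5a, was at 6.71, 8.51, 6.07 and 16.3 CPM in 129X1, against 18.8, 57.7 and 88.2 CPM in B6 (log2 -2.33, SE 0.42, adjusted p = 0.00223), with no overlap. C3ar1 (-1.99, SE 0.46) and C1qb (-1.31, SE 0.35) were lower with overlap, and both calls ended without the 129X1 Veh library. Cfi, the protease that inactivates C3b, was the member that was higher, at 5.49, 8.74, 2.65 and 6.69 CPM in 129X1, against 0.170, 1.14 and 5.06 CPM in B6 (log2 2.40, SE 0.52, adjusted p = 0.00744).

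Cell cycle genes were lower in 129X1, with 15 of 23 tested members passing as lower, 0 as higher and a median of -1.43. Over all genes tested, 11.9 percent were lower. Mcm6, a subunit of the replicative helicase, was at 3.90, 4.79, 5.49 and 8.30 CPM in 129X1, against 18.7, 34.8 and 49.9 CPM in B6 (log2 -2.51, SE 0.25, adjusted p = 9.5e-06). Bub1b, a kinase of the spindle checkpoint, was at 1.13, 0.644, 0.765 and 3.30 CPM in 129X1, against 4.15, 9.39 and 13.5 CPM in B6 (log2 -2.42, SE 0.41, adjusted p = 0.00154). Neither overlapped between strains, and both calls held whichever single library was left out. Both ended in the left-out libraries, in the vehicle libraries alone, with the Tg limit alone and with all 36 libraries, and that of Bub1b also ended in the drug-treated libraries alone. The replication clamp Pcna was at 20.3, 20.7, 21.6 and 30.3 CPM in 129X1, against 31.1, 49.0 and 60.1 CPM in B6 (log2 -0.94, SE 0.15, adjusted p = 0.00118). Part of its reads may count to the near-identical Pcna-ps2, and the sum of both was 24 to 36.2 CPM in 129X1 and 31.1 to 60.2 CPM in B6. The summed level of the list was 83.2, 85.7, 92.3 and 166.6 CPM in 129X1, against 119, 293 and 434 CPM in B6. Within 129X1 it was highest in the Sac/val library, which also had the most Rag1 (2.77 CPM), and the part of thymic cells in this value was not tested. For cell cycle, 3 members passed without the 129X1 Veh library and 4 without 129X1 Val 1, 129X1 Val 2 or B6 Val prophylactic 3. With all 36 libraries 0 passed and the median was 0.18.

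Genes of mitochondrial respiration were higher in 129X1. Of 25 tested members, 22 passed as higher, 0 as lower, and all 25 differences were positive, between 0.79 and 1.32, with a median of 1.06. Over all genes tested, 12.9 percent were higher. Uqcrfs1, the iron-sulphur protein of complex III, was at 694, 354, 745 and 541 CPM in 129X1, against 122, 336 and 592 CPM in B6 (log2 1.32, SE 0.38, adjusted p = 0.025). Cox4i1, a subunit of cytochrome oxidase, was at 881, 559, 1121 and 774 CPM in 129X1, against 315, 560.4 and 773 CPM in B6 (log2 0.92, SE 0.27, adjusted p = 0.0263). The complex I subunit Ndufs8 (1.08, SE 0.30) and the succinate dehydrogenase subunit Sdhc (1.00, SE 0.28) passed as well. All 4 calls ended with the parathyroid, adipocyte, Schwann cell or brown fat score as a covariate, and with sympathetic neuron and B cell scores. They also ended with treatment by regimen arms, with ranges of the animal number and in the drug-treated libraries alone. They held with the skeletal muscle score, and with skeletal muscle, adipocyte and Schwann cell scores together. In each of these 4 genes the 129X1 Val 1 library lay within the B6 range, and that library also had the lowest Ucp1 of the strain. For Uqcrfs1 the 129X1 Sac/val library (541 CPM) lay within the B6 range as well. Ucp1 in that library was at 2310 CPM, and in B6 at most at 1751 CPM. The part of brown fat in the respiration levels of these single libraries was not tested.

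Brown fat markers moved with these genes. Of 14 tested members of the brown fat list, 4 were higher and 0 lower, with a median of 1.45. Over all genes tested, 12.9 percent were higher and 11.9 percent lower. Their summed level was 5794, 1858, 5986 and 4089 CPM in 129X1, against 322, 1989 and 3826 CPM in B6, and no member was at 0 in all 17 libraries. The lipid elongase Elovl3 was at 172.5, 33.4, 189.7 and 67.4 CPM in 129X1, against 2.12, 22.3 and 49.3 CPM in B6 (log2 2.9, SE 0.73, adjusted p = 0.0142). Of 19 adipocyte genes, 5 were higher and 1 lower, beside the same 12.9 and 11.9 percent. Acaca, the rate-limiting enzyme of fatty acid synthesis, was at 1557, 726, 1207 and 877 CPM in 129X1, against 99.5, 428 and 689 CPM in B6 (log2 1.72, SE 0.46, adjusted p = 0.0195), with no overlap. The number of higher members ran from 0 without the 129X1 Veh library to 6 without B6 Sac/val therapeutic 2 for brown fat, and from 0 without 129X1 Veh or Val 2 to 8 without B6 Sac/val therapeutic 2 for adipocyte genes. Resistin (Retn) was the lower member, at 35.9, 34.1, 50.7 and 48.2 CPM in 129X1, against 53.2, 88.4 and 167.2 CPM in B6 (log2 -1.07, SE 0.33, adjusted p = 0.032). The brown fat score was the mean log2 CPM of the list in each library, and the list holds the cytochrome oxidase subunits Cox7a1 and Cox8b. The score thus partly measures respiration genes, so a fit with it cannot separate these from brown fat. With this score as a covariate, 0 of 25 mitochondrial respiration members passed and the median was 0.23. With the 7 prophylactic B6 libraries alone, 0 passed and the median was 1.00, 0 passed without the 129X1 Veh library or without 129X1 Val 2, and 1 passed without B6 Val prophylactic 3. With the same covariate 5 interferon response, 4 macrophage and 3 cell cycle members passed as lower, with medians of -1.39, -0.87 and -0.89.

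Among 28 antioxidant and redox genes, 5 were higher and 3 lower, beside 12.9 and 11.9 percent of all genes tested. Without the 129X1 Veh library 0 were higher and 0 lower, and without the 129X1 Sac/val library 8 were higher and 6 lower. The higher ones included the mitochondrial thioredoxin Txn2 (0.73, SE 0.20), its reductase Txnrd2 (1.02, SE 0.26) and Gpx4 (0.88, SE 0.26), which reduces lipid peroxides, and each of these 3 calls ended without the 129X1 Veh library. Nnt, the mitochondrial transhydrogenase gene that lacks exons in C57BL/6J, was at 21, 29.2, 17.7 and 26.3 CPM in 129X1, against 13.6, 20.1 and 24.7 CPM in B6 (log2 0.38, SE 0.16, adjusted p = 0.0924). The groups overlapped, and the difference did not pass.

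**Figure D3:**
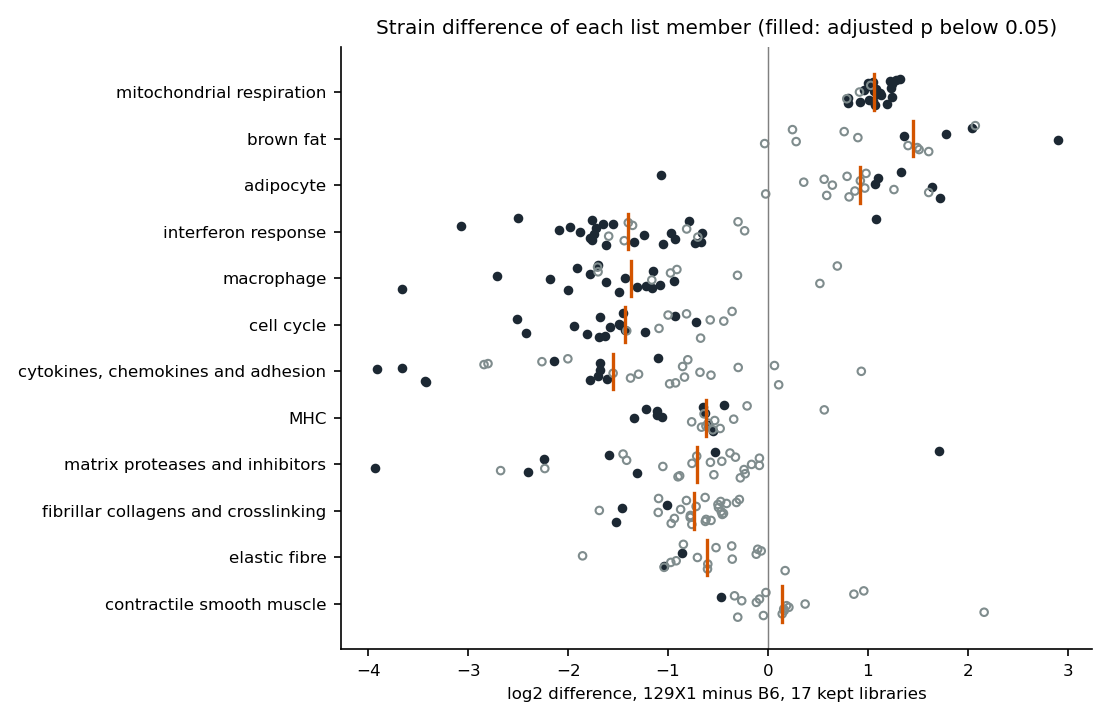
Log2 difference (129X1 minus B6, 17 retained libraries) of each tested member of 12 gene lists; filled points passed at an adjusted p below 0.05, open points did not, and orange bars are list medians. All 25 mitochondrial respiration members lie above 0 (22 filled), and 30 of 31 interferon response members lie below 0.

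All 28 genes of fibrillar collagens and crosslinking had negative differences (median -0.74). Lox, Loxl3 and Col12a1 passed, and this count of 3 is near the share of all genes tested that were lower (10.7 against 11.9 percent). This count rests on single libraries: it was 22 without the 129X1 Sac/val library, 5 without B6 Sac/val therapeutic 1, 1 without B6 Val prophylactic 3 and 0 without 129X1 Veh or Val 2. Lox, the lysyl oxidase that crosslinks matrix fibres, was at 77.2, 122, 57.6 and 129.8 CPM in 129X1, against 57.6, 332 and 699 CPM in B6 (log2 -1.46, SE 0.45, adjusted p = 0.0312). 1 B6 library lay as low as the 129X1 values, and leaving out single libraries ended the call in 5 of 17 cases, with adjusted p reaching 0.138. Col12a1, a collagen that associates with fibrils, differed by -1.52 (SE 0.42) and Loxl3, a relative of Lox, by -1.01 (SE 0.30). The main fibrillar chains Col1a1 (-0.57), Col1a2 (-0.62) and Col3a1 (-0.94) did not pass. Of 17 elastic fibre genes 2 were lower, Emilin1 and Ltbp2, a share near the 11.9 percent of all genes tested. The elastic fibre count was 0 without 129X1 Veh or Val 2 and 10 without the 129X1 Sac/val library, and leaving out single libraries ended the call of Emilin1 in 14 of 17 cases, with adjusted p reaching 0.192. Elastin itself (Eln) was at 2540, 3068, 814 and 943 CPM in 129X1, against 362, 2399 and 11506 CPM in B6, with complete overlap (-1.04, SE 0.76, adjusted p = 0.333).

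Of 20 basement membrane genes, 4 were lower, beside 11.9 percent of all genes tested. The count was 1 without the 129X1 Veh library and 8 without the 129X1 Sac/val library. Col4a6, a chain of type IV collagen, was at 3.05, 2.95, 1.48 and 1.90 CPM in 129X1, against 13.4, 35.7 and 69.3 CPM in B6 (log2 -3.97, SE 0.44, adjusted p = 2.77e-05), with no overlap. The others were Nid2 (-0.77, SE 0.25) and the short-chain collagens Col8a1 (-1.49, SE 0.45) and Col8a2 (-2.66, SE 0.68), which migrating smooth muscle cells deposit.

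Of 17 contractile smooth muscle genes 1 passed, Rgs5, a regulator of G-protein signalling in mural cells (-0.47, SE 0.16, adjusted p = 0.0487). Leaving out single libraries ended this call in 13 of 17 cases, with adjusted p reaching 0.125, and it also ended with the size factors of DESeq2. Myh11 (0.19), Cnn1 (0.14), Tagln (-0.02) and Acta2 (-0.30) did not pass. Among 15 genes of the modulated smooth muscle state, 4 were lower, 1 without 129X1 Veh or Val 2 and 9 without the 129X1 Sac/val library. Ccnd1, the cyclin of cell cycle entry, was at 24.4, 35.7, 36 and 33.7 CPM in 129X1, against 32.0, 77.8 and 98.0 CPM in B6 (log2 -1.15, SE 0.23, adjusted p = 0.00398), and this call held whichever single library was left out but ended in the drug-treated and in the vehicle libraries alone. Thbs1, an adhesive matrix protein, differed by -1.48 (SE 0.43) and the hyaluronan receptor Cd44 by -1.48 (SE 0.46). Of 21 genes of the TGF-beta and CCN list, 5 were lower, among them Wisp2 (-1.90, SE 0.56) and Wisp1 (-2.01, SE 0.60). In the TGF-beta and CCN list 0 passed without 129X1 Veh, 129X1 Val 2, B6 Val prophylactic 3 or B6 Sac/val prophylactic 3.

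Of 27 matrix proteases and inhibitors, 6 were lower and 1 higher, beside 11.9 and 12.9 percent of all genes tested. The lower count was 0 without 129X1 Veh, Val 1 or Val 2 and 13 without the 129X1 Sac/val library. Cathepsin S (Ctss), an elastin-degrading protease of macrophages, was at 30.6, 102, 175 and 429.6 CPM in 129X1, against 241, 939.9 and 1294 CPM in B6 (log2 -2.40, SE 0.67, adjusted p = 0.0223). The collagenase Mmp13 was at 0.329, 0.782, 1.03 and 9.62 CPM in 129X1, against 1.06, 40.1 and 89.8 CPM in B6 (log2 -3.93, SE 1.37, adjusted p = 0.0492). Leaving out single libraries ended this call in 14 of 17 cases, with adjusted p reaching 0.168. In both genes the Sac/val library of 129X1 was the highest of its strain. The inhibitor Timp4, which adipose tissue also expresses, was the higher member, at 72.6, 27.5, 56.9 and 43.4 CPM in 129X1, against 6.09, 20.2 and 47.3 CPM in B6 (log2 1.71, SE 0.43, adjusted p = 0.0151).

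Genes at which the drugs act gave 1 clear strain difference. Agtr1a, the type 1 angiotensin receptor that valsartan blocks, was at 13.5, 19.7, 18.1 and 18.7 CPM in 129X1, against 6.52, 9.32 and 12.8 CPM in B6 (log2 1.02, SE 0.20, adjusted p = 0.00427). The strains did not overlap, and the call held whichever of the 17 libraries was left out, with adjusted p at most 0.0144. It ended in the vehicle libraries alone, which hold 1 library of 129X1. Its trafficking partner Agtrap was at 38.3, 46.2, 43.7 and 55.7 CPM in 129X1, against 46.3, 65.8 and 86.1 CPM in B6 (log2 -0.43, SE 0.12, adjusted p = 0.0252), and leaving out single libraries ended that call in 4 cases, with adjusted p reaching 0.120. They were the 2 of 15 tested renin-angiotensin genes that passed.

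Mme, which encodes neprilysin, was at 103, 51.6, 112.8 and 71.1 CPM in 129X1, against 20.7, 53.0 and 109.01 CPM in B6 (log2 1.11, SE 0.41, adjusted p = 0.0584). Npr3, the clearance receptor of natriuretic peptides, was at 26.4, 14.9, 25.2 and 15.2 CPM in 129X1, against 7.96, 16.2 and 30.6 CPM in B6 (log2 0.78, SE 0.36, adjusted p = 0.126). Both genes overlapped between strains and did not pass, and within 129X1 both were lowest in the Val 1 library. Of 20 genes of the list of natriuretic peptide, cGMP and nitric oxide, 1 passed. It was Gchfr, the feedback regulator of tetrahydrobiopterin synthesis, at 66.3, 20.2, 94.3 and 55.7 CPM in 129X1, against 0.133, 0.468 and 1.16 CPM in B6 (log2 7.14, SE 0.45, adjusted p = 9.49e-08).

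**Figure D4:**
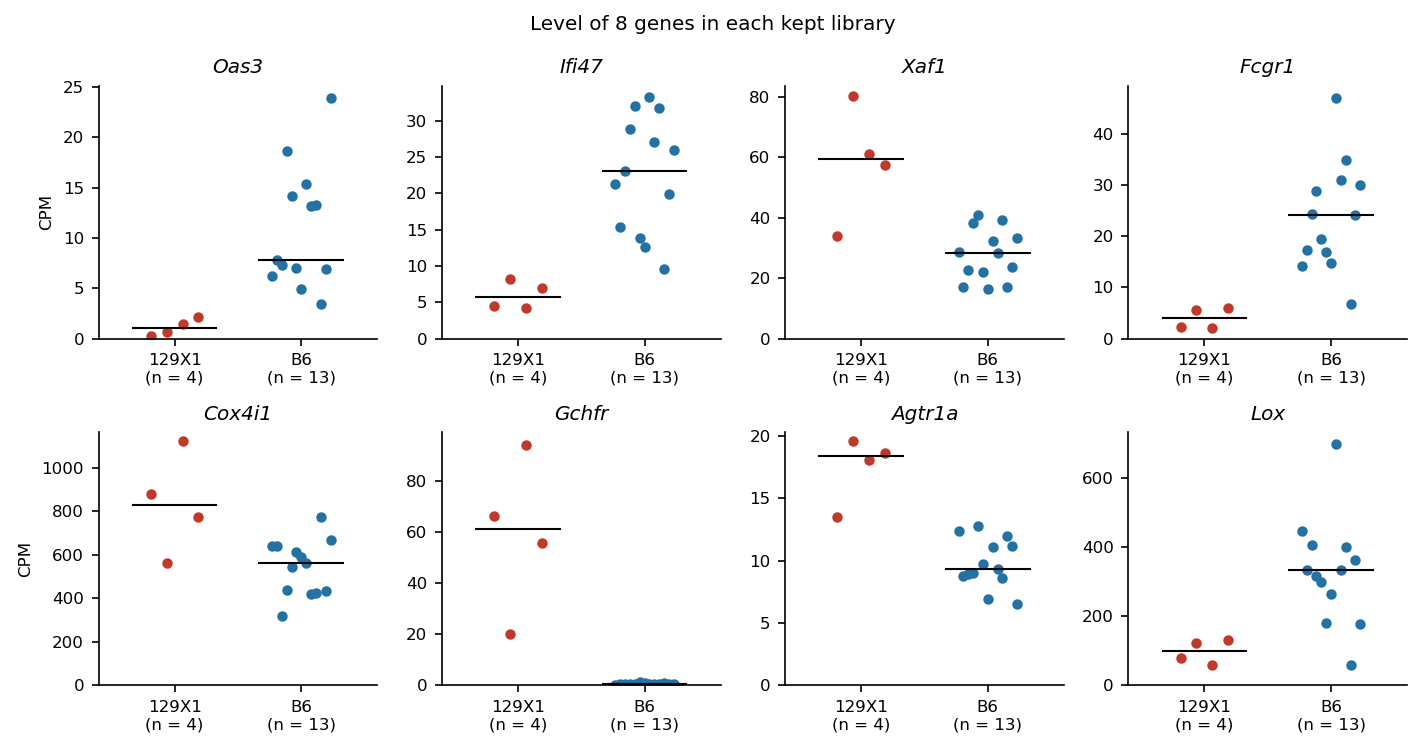
CPM of 8 genes in each retained library (4 of 129X1 on the left, 13 of B6 on the right of each panel); points are libraries, lines medians, and each axis starts at 0. The strains do not overlap for Oas3, Ifi47, Fcgr1, Gchfr and Agtr1a and overlap for Xaf1, Cox4i1 and Lox.

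Among genes with a mean of at least 5 CPM and no overlap, and leaving out predicted genes without an established symbol, the 10 largest higher ones were Rps13-ps1, Eno1b, Rps3a3, Gbp2b, Gchfr, Gdpd3, Rbp7, Abhd1, Slc2a5 and Ttc25, and the 10 largest lower ones were Trim12a, Brinp3, Gpr137b-ps, Trim30d, Slfn8, Slamf7, Trim34a, Pttg1, Col4a6 and Ndufs5. Gbp2b, an interferon-induced GTPase outside the list above, was at 21.9, 33.8, 26.4 and 29.7 CPM in 129X1, against 0, 0.135 and 0.631 CPM in B6 (log2 7.22, SE 0.54). Rbp7, a retinol-binding protein of endothelium and fat, was at 50.1, 22.6, 45.3 and 24.3 CPM in 129X1, against 1.57, 3.34 and 4.62 CPM in B6 (log2 3.76, SE 0.33). Slamf7, a receptor of lymphoid and myeloid cells, was at 0.282, 0.782, 0.495 and 1.11 CPM in 129X1, against 7.15, 18.3 and 36.2 CPM in B6 (log2 -4.82, SE 0.59). Securin (Pttg1), which holds sister chromatids together until anaphase, was at 1.31, 1.84, 2.11 and 2.39 CPM in 129X1, against 28.1, 36 and 43.9 CPM in B6 (log2 -4.08, SE 0.18, adjusted p = 1.79e-09).

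Trim12a had 0 counts in the 4 libraries of 129X1 together and 7430 in the 13 of B6, where it was at 15.6, 23.8 and 33.7 CPM. With 3 counts over the 129X1 libraries as the floor, its measured level was at least 709-fold lower. The gene lies among the TRIM5-related genes on chromosome 7, which encode restriction factors of retroviruses. Of 11 tested genes between 104218793 and 104535361 on that chromosome (GRCm38), 7 were lower and 2 higher in 129X1. Over all genes tested, 11.9 percent were lower and 12.9 percent higher. Trim5 differed by -4.90, Trim30d by -6.00 and Trim30a by -1.59, while Trim34b was higher by 4.90 and Trim12c did not pass (-0.30). The higher Trim34b is a near-identical copy of Trim34a, and the sum of both was 2.70 to 4.69 CPM in 129X1 and 13.9 to 29.9 CPM in B6. Slfn8 lies in the Schlafen cluster on chromosome 11, where 8 of 15 tested genes between 82892124 and 83260960 were lower and 2 higher, beside the same shares. Slfn4 differed by -3.49, Slfn1 by -2.36 and Slfn2 by -1.93, and Slfn5 (-0.50) did not pass. In the left-out libraries Slfn8 (-4.68) and Slfn2 (-0.89) passed as lower, whereas Slfn4 (-1.32) and Slfn1 (-1.01) did not pass. Trim5, Trim30d and Trim30a passed as lower there too. Both stretches were picked after their values were seen. Reads of both strains were aligned to GRCm38. Whether sequence that differs between the strains lowered the counts of these genes in 129X1, Trim12a among them, was not tested.

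Several of the largest differences were in genes with a near-identical copy, whose reads the counting could have split differently in the strains, and these are uncertain. Rps13-ps1, Rps3a3 and Eno1b are copies of Rps13, Rps3a1 and Eno1. Rps3a3 averaged 99.1 CPM in 129X1 and 0.300 CPM in B6, Rps3a1 averaged 68.9 CPM in 129X1 and 327 CPM in B6, and their sum was 130 to 212 CPM in 129X1 and 218 to 401 CPM in B6. Ndufs5, a subunit of complex I, was the one gene of respiration among the largest lower ones, at 1.83, 0.920, 1.75 and 1.57 CPM in 129X1, against 16.0, 28.7 and 38.6 CPM in B6 (log2 -3.82, SE 0.30). Its processed copy BC002163 on chromosome 16 averaged 51.0 CPM in 129X1 and 0.911 CPM in B6. The sum of both genes was 52.5 ± 12.2 CPM in 129X1 (SD, n = 4) and 27.7 ± 7.16 CPM in B6 (SD, n = 13). The coding sequence of Ndufs5 and the copy differ at 2 of 318 bases in GENCODE M21 (GRCm38), both within the stretch of 61 bases from coding base 51 shown here, with the differing bases in capitals.
Ndufs5: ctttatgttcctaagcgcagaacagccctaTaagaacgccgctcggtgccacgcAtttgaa
BC002163: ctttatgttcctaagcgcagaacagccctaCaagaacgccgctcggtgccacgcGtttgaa
A read of this stretch can therefore be told apart by these letters alone, and Ndufs5 taken by itself gives the opposite direction to Ndufs5 and its copy together.

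Other cell types were measured with marker lists. Of 18 endothelial genes 1 was lower, the tight junction gene Cldn5 (-0.66, SE 0.16), and the summed level was 1152 to 1470 CPM in 129X1 and 1246 to 1894 CPM in B6. Of 17 Schwann cell and myelin genes, Gldn, which encodes gliomedin of the nodes of Ranvier, was higher at 70.6, 65.1, 59.4 and 47.5 CPM in 129X1, against 16.9, 21.2 and 31.7 CPM in B6 (log2 1.73, SE 0.19, adjusted p = 2.29e-05), and Prx was lower (-0.61, SE 0.16). The mast cell tryptase Tpsab1 was higher (3.15, SE 0.45), the only passing gene of 12 in its list. Of 17 T and NK cell genes 4 were lower, beside 11.9 percent of all genes tested. The T and NK cell count was 1 without the 129X1 Veh library and 12 without the 129X1 Sac/val library. Of 16 B and plasma cell genes 3 were lower, beside the same 11.9 percent, and leaving out single libraries gave 0 to 6. Igkc, the kappa light chain, was at 1.97, 5.02, 4.32 and 6.36 CPM in 129X1, against 2.74, 27.0 and 153 CPM in B6 (log2 -3.76, SE 1.20, adjusted p = 0.0367). None of 21 skeletal muscle, 5 parathyroid or 18 sympathetic neuron and glomus cell genes passed, although the list medians of muscle and parathyroid were 3.10 and 4.37, and no member of these 3 lists was at 0 in all 17 libraries. Casr, the calcium sensor of the parathyroid, had the smallest p of the parathyroid list (adjusted p = 0.0546). Their part in the differences above was not tested beyond the score covariates given with the lists and in the closing section.

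The 19 libraries left out hold other mice of both strains, 14 of 129X1 and 5 of B6, and gave a separate measurement of the strain difference. There 2816 of 17424 genes passed (16.2 percent), 1554 higher and 1262 lower. Among 16639 genes tested in both sets, 1021 were higher in both, which is 46.6% of those higher in the retained and 69.9% of those higher in the other libraries. Lower in both were 591 genes, 31.3% and 48.2% of the lower ones, and 4 genes passed in opposite directions. Of the lists, interferon response had 25 of 31 members lower in the other libraries (7.24 percent of all genes were lower there) with a median of -1.13, and mitochondrial respiration had all 25 higher (8.92 percent were higher) with a median of 0.82. Brown fat markers were also higher in 129X1 there, 8 of 14 with a median of 1.21. Of 19 adipocyte genes 13 were higher and 1 lower. The part of brown fat in the respiration difference of the left-out libraries was not tested. Agtr1a differed by 1.06 (adjusted p = 0.00524) in the other libraries, and Mme by 1.47 (adjusted p = 0.00189). Macrophage genes had 3 of 24 lower with a median of -0.14, and cell cycle genes 1 of 23 with a median of -1.20. In the left-out B6 libraries the summed cell cycle level rose in the order of Rag1. It went from 342 CPM in Val prophylactic 2 (Rag1 7.61 CPM) to 4820 CPM in Val prophylactic 1 (Rag1 1738 CPM). The cell cycle median of the left-out libraries therefore cannot be told apart from their thymic content.

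**Figure D5:**
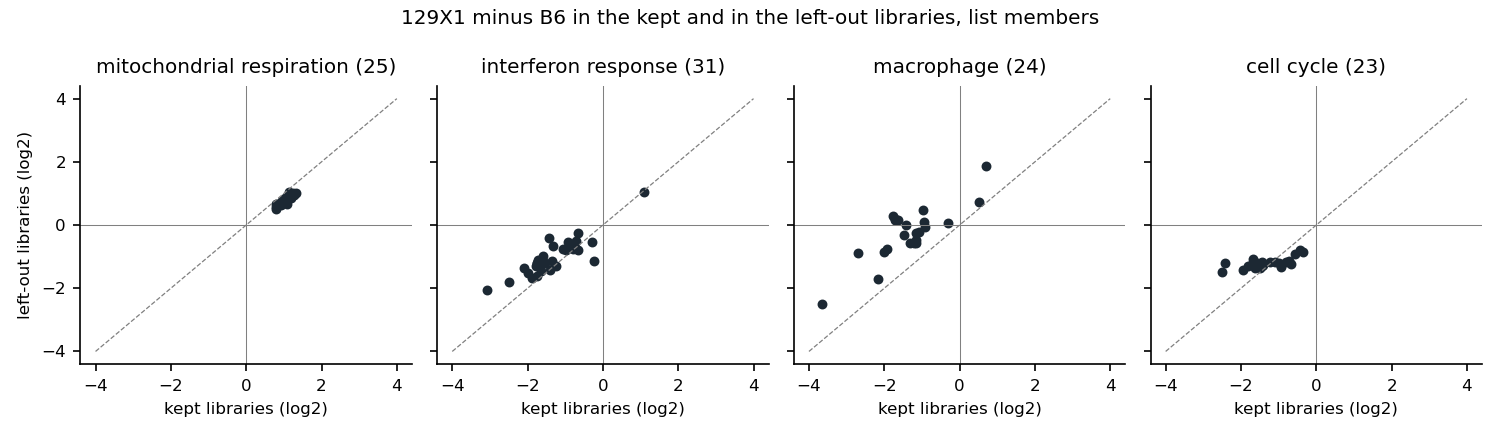
Log2 difference (129X1 minus B6) of list members in the 17 retained libraries (horizontal) and in the 19 left-out libraries (vertical), with the number of genes in each panel; the dashed line marks equal values. The macrophage genes have a median of -1.37 on the horizontal and -0.14 on the vertical axis, the mitochondrial respiration genes 1.06 and 0.82.

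The difference between the retained and the left-out libraries was itself tested in a fit over all 36. Of 18301 genes, 25 passed (0.137 percent), all with a strain difference that was higher in the retained libraries, and 2669 had an unadjusted p below 0.05. No macrophage, cell cycle, interferon response or mitochondrial respiration gene passed this test, so a difference between the 2 sets was not shown for these lists, although macrophage counts were 16 and 3. Of the 25 genes, 20 had their highest level in 1 of 2 left-out B6 libraries, 12 in Val prophylactic 1 and 8 in Veh therapeutic 3, which the Rag1 and Tg limits had removed. Aqp11, a channel of the aquaporin family, was at 36.9, 27.0, 26.0 and 24 CPM in 129X1 and 2.93, 4.52 and 6.15 CPM in B6 among the retained libraries. Among the left-out libraries its median was 23.6 CPM in 129X1 and 99.5 CPM in B6, and the interaction was 4.65 (SE 0.58, adjusted p = 6.58e-05). Across the left-out B6 libraries Aqp11 rose in the order of Rag1. It went from 5.63 CPM in Val prophylactic 2 (Rag1 7.61 CPM) to 207 CPM in Val prophylactic 1 (Rag1 1738 CPM). The rule selects on Rag1, so this interaction is given as a description. Leaving out B6 Val prophylactic 2, a left-out library, gave 361 passing genes, and leaving out the 129X1 Veh library gave 11.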

How the data were processed

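RNA was sequenced from 36 ligated left carotid arteries with a stranded mRNA library kit, per the labels' protocols. The authors deposited 1 table of raw counts per gene symbol. Reads were trimmed with Trimmomatic 0.36, aligned to GRCm38 with STAR 2.5.2b and counted with featureCounts of Subread 1.5.0p3, per the submitters' processing notes; the annotation and strand setting are not given in the sources used here. The members and gene lists were chosen with earlier results of these data known.

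From the deposited counts, 17 libraries were retained by Rag1 and Tg CPM. Genes passing filterByExpr were tested in edgeR 4.0.16 (R 4.3.3) with TMM scaling and the quasi-likelihood test, with strain, treatment and regimen as terms, over 17096 genes with Benjamini-Hochberg adjustment at 0.05. All adjusted p-values come from this test unless another is named, and differences are log2, 129X1 minus B6. The left-out libraries were fitted in the same way, and the interaction of strain with retention was tested over all 36. Titles give each library an animal number of its own, so p-values measure the spread between single mice. The residual degrees of freedom were 12 and the median 95% interval reached 0.43 to either side. Genes given in full were chosen by rule: the 10 largest differences in each direction without overlap at a mean of at least 5 CPM, up to 4 passing members of each list with the smallest p, up to 5 interaction genes, and genes of an earlier comparison. List members and genes of the 2 gene clusters named beyond that were chosen after their values were seen. Copies were sought among GENCODE M21 transcripts. Alternatives covered scaling, test, filter, covariates, limits and single libraries, with DESeq2 1.42.0 among them.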

Additional observations from a re-analysis of the deposited data

Results flagged for a closer look

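In 9 of 127 named genes, 1 of the 4 retained 129X1 libraries stood apart from the other 3. Chance gives about 1 in 20 for like libraries and independent genes. These 4 libraries differ in treatment, so that share is a rough guide only. In the Sac/val library Ccl7 was high at 21.3 CPM, Cenpe at 1.57, Mmp13 at 9.62 and Pcna at 30.3 CPM, while Klrb1c was low at 0.124 CPM. In Val library 1 Col2a1 stood apart at 3.82 CPM, Cr2 at 0.506 and Trim34a at 1.01 CPM. In the Veh library Slc2a5 was high at 29.3 CPM.

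For 6 named genes the strain difference itself differed between the retained and the left-out libraries. The log2 interaction was 4.65 for Aqp11, 4.06 for Cd1d2, 3.88 for Fbp1, 3.22 for Slc6a19 and 1.78 for Map7. It was 7.23 for Calca (SE 1.48), a marker of thyroid C cells and thus of a tissue that the Tg limit selects on, so this value is a description. In the left-out B6 libraries Aqp11 and Cd1d2 followed the order of Rag1, on which the rule also selects, so their values are descriptions too. Slc6a19 (38.1 CPM) and Map7 (35.5 CPM) were highest in B6 Val prophylactic 1, the library with the most Rag1. Among the left-out B6 libraries Fbp1 was highest in Veh therapeutic 3 (8.46 CPM), the library with the most Tg. The values of these 3 genes are likewise descriptions. The reads of Cd1d2 may be shared with its near-identical copy Cd1d1.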

How the results depend on the processing

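No paired analysis was possible because the labels give no replicate number that pairs mice of the strains. The 4236 calls (2197 higher, 2039 lower) moved, and the cause was not tested. With treatment by regimen arms they were 2260 (1129 higher, 1131 lower), with 3 list scores (skeletal muscle, adipocyte, Schwann cell) 2498 (1164, 1334), with sympathetic neuron and B cell scores 641 (284, 357) and with ranges of the animal number 1866 (795, 1071). With limits of 5 and 50 CPM they were 2726 (1381, 1345), in the left-out libraries 2816 (1262 lower) and with all 36 libraries 3150 were lower. The retained vehicle libraries alone, where the 1 of 129X1 is assumed to vary like those of B6, gave 43 (36, 7), drug-treated ones 638 (268, 370) and prophylactic ones 2316 (1207, 1109). Scores chosen after seeing the data gave 1112 (478, 634) for parathyroid, 1062 (514, 548) for brown fat, 1592 (789, 803) for adipocyte and 1280 (547, 733) for Schwann cell. Leaving out 1 library gave 1159 to 5962 (471 to 2865 higher, 688 to 3097 lower). The other 10 settings gave 3350 to 5552 calls, and retained therapeutic libraries could not be fitted. The 25 interaction genes were 97 (74 higher, 23 lower) by DESeq2, 68 (64, 4) without treatment and regimen, and 11 to 361 (11 to 293, 0 to 68) without 1 library. Log2 values that turned, from -0.15 for Ms4a1 in the 17 libraries, were 0.84 for Ms4a1 with the 2 scores, 0.18 with drug-treated libraries, 0.70 with the parathyroid score (Eln 0.17), 0.23 with brown fat (Npr3 -0.10), 0.0062 with adipocyte, and -0.86 to 0.40 without 1 library. With the Rag1 limit alone, Calca was 0.70, Cd79b 0.46, Duox2 0.25, Ms4a1 2.38 and Slc5a5 0.45. With the Tg limit alone, Bub1b was 0.27, Cd79b 1.37, Cenpe 0.090, Igkc 0.57, Jchain 0.49, Map7 -0.14, Ms4a1 3.64 and Slc6a19 -0.65. With all 36, Bub1b was 0.089, Cd79b 1.30, Igkc 0.55, Jchain 0.57, Map7 -0.28, Ms4a1 3.67 and Slc6a19 -0.79. In the left-out libraries, Aqp11 was -1.85, Ccl25 -1.34, Cd79b 0.46, Cldn5 0.36, Itgb3 0.24, Map7 -1.18, Ms4a1 3.13, Rgs5 0.035 and Slc6a19 -2.42. The depth of at least 20.9 M counts bears most on genes near 0 CPM.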
